A study of Mus musculus with 7 samples.

Results

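The voltage-gated sodium channels and the sodium leak channel Nalcn were followed through ERα+ neurons of the medial preoptic area (MPA) that did or did not raise their firing with warmth. The 8 genes were taken by symbol from the 24062 genes counted. They comprise the pore-forming alpha subunits Scn1a, Scn3a, Scn8a and Scn9a, the auxiliary beta subunits Scn2b, Scn3b and Scn4b, and Nalcn. The rule used symbols and no measured value, although the genes were chosen with earlier results of these data known. Other genes of the family are given for comparison. The neurons came from adult Esr1-ZsGreen mice, a reporter line in which ERα cells fluoresce green, and every sample was ZsGreen positive. The study states that only females were recorded, with which the counts of sex-linked genes given below conflict. In all samples the slice was warmed by 5 °C during the recording, after which the contents of 2 neurons with a similar response were aspirated and pooled. The comparison was between 4 temperature-responsive (TR) and 3 non-responsive (NR) samples, which differ in the firing response and not in genotype or treatment. The labels do not say whether the samples of a group came from separate mice, so p-values measure the spread between these samples, which may be partly technical.

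Voltage-gated sodium channels carry the inward current that starts and propagates the action potential. An alpha subunit forms the pore, senses voltage and inactivates, and beta subunits are single-span membrane proteins that adjust gating and help to place the channel. Nalcn is a relative of the alpha subunits that is not opened by depolarization in the same way and passes a steady sodium leak, which holds the resting potential closer to the firing threshold. Both kinds of channel set how readily a neuron fires spontaneously.

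Of the 8 genes, Scn1a was higher and Scn8a was lower in TR neurons, and the other 6 did not pass the test. Scn1a rose by 37.5% and Scn8a fell by 22.1%, so these alpha subunits differed in opposite directions. Nalcn was 21.2% higher, at the edge of the threshold (edgeR adjusted p = 0.05003). All 8 genes passed the filter on low counts and were tested. At an adjusted p threshold of 0.05 in edgeR's quasi-likelihood test, 2 of the 8 were called, against 30.0% of all 14407 genes tested, so that the share was no higher than the background. Called higher was 1 of the 8, against 15.1% of all genes, and called lower 1 of the 8, against 14.9%. The groups did not overlap in 4 of the 8, against 35.4% of all genes. Of these, 2 were higher in every TR sample (17.2% of all genes) and 2 lower (18.2%).

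The starts of the genes called in opposite directions are shown for their sequence context. They are RefSeq promoter windows on GRCm38.p6, from 250 bases before to 50 bases after the annotated start, 5′ to 3′ on the strand of the gene, with each CpG dinucleotide (the letters CG) in capitals. The Scn1a window lies at chr2:66440788-66441087 on the minus strand, and that of Scn8a at chr15:100870395-100870694 on the plus strand, the more upstream of 2 windows listed for that gene.
Scn1a: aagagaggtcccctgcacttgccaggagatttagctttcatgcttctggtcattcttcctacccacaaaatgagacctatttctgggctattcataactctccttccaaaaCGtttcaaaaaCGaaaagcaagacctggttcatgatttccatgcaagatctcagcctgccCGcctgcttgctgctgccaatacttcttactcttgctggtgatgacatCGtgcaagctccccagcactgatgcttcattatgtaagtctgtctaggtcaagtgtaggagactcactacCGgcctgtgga
Scn8a: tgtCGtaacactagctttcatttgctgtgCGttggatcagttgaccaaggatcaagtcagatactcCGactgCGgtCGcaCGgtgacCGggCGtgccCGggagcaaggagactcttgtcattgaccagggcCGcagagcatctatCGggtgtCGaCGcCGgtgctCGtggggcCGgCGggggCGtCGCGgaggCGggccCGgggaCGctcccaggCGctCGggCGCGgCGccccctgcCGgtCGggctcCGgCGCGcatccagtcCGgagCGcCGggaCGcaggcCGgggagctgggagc
The Scn1a window holds 5 CpG and is 47.3% G and C, and 62.0% of the 32851 windows in the table hold at least as many CpG. That of Scn8a holds 38 CpG and is 70.0% G and C, a CpG count that 4.95% of all windows reach. The second Scn8a window holds 12. Of the 8 genes, 6 had a window in the table. Among those not shown, the window of Scn2b held 2 CpG, that of Nalcn 3, Scn9a 9 and Scn4b 26. Whether CpG content goes with the direction of a change was not tested. These are descriptions of the letters in the windows, and no binding or methylation was measured.

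Total counts ranged from 1914497 to 2814360 in TR and from 3309361 to 5125280 in NR samples, and the numbers of genes detected from 19852 to 21177 and from 17818 to 19820, both without overlap between the groups. The lowest level held to be detectable, 3 counts, equalled 0.564 to 1.62 CPM (counts per 1000000 of the TMM-scaled total), which covers counting error only. Counts of the 8 genes ranged from 45 for Scn4b to 1936 for Scn8a, well above that floor. Genes that mark neurons (5 genes, among them Snap25 and Syt1) summed to between 2189 and 2798 CPM in each sample, and Esr1 itself had 10 to 27 counts. Markers of other cells were also present. The 4 oligodendrocyte genes, with Mbp and Mog, summed to 1474 to 2135 CPM, and none of the markers of astrocytes, oligodendrocytes and their precursors, microglia or endothelium stayed at or under the floor in all samples. The summed astrocyte genes were higher in every TR sample (1083 to 1261 CPM) than in every NR sample (876 to 1068 CPM), as were the endothelial genes (65.7 to 174 against 15.2 to 41.6 CPM). Of the 5 astrocyte genes, 2 were called higher and 1 lower, and of the 5 endothelial genes 4 were called higher. Among the 5 neuron genes, Snap25 was called higher (0.50 on the log2 scale), and Tubb3 (-0.24) and Rbfox3 (-0.38) lower. Over all genes tested, 15.1% were called higher and 14.9% lower. The study used female mice for the recordings. The Y-linked gene Ddx3y, however, had 684 to 1150 counts and Xist 2 to 14 in each sample, which conflicts with that stated sex. The reason was not tested. The part of the other cells in the differences below was not tested. With all samples downsampled to the smallest total, Scn1a (0.46 on the log2 scale, edgeR adjusted p = 0.0111) and Scn8a (-0.34, edgeR adjusted p = 0.0122) were still called, among 3641 genes. A fit with the genes detected per sample as a covariate is given beside each of them below. In pooled contents, fewer cells of a type and less RNA per cell cannot be told apart.

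Scn1a, which encodes the Nav1.1 pore and is known for its role in fast-firing inhibitory neurons, was at 478, 366, 304 and 291 CPM in TR replicates 1 to 4. In NR replicates 1 to 3 it was at 247, 267 and 268 CPM. Every TR sample was thus above every NR sample, with TR replicate 1 the highest and the NR samples close together. The mean was 359.8 ± 85.6 CPM (SD, n = 4) in TR and 261 ± 11.5 CPM (SD, n = 3) in NR neurons. The log2 fold change was 0.46 (standard error, SE, of 0.132, edgeR adjusted p = 0.0131). Without TR replicate 1 it was 0.29 and still passed (edgeR adjusted p = 0.0350). With an offset for GC content it was 0.31 and did not pass (edgeR adjusted p = 0.0574). It did pass in a fit that also held the replicate number as a block and left out TR replicate 4 (0.36, edgeR adjusted p = 0.0237). That replicate was the lowest TR sample for Scn1a, and leaving it out with no offset or block gave 0.56. The block and the missing sample cannot be told apart in that fit. Adjusted for how many genes each sample detected, it was 0.74 with an SE of 0.199 and missed the threshold (edgeR adjusted p = 0.133), in a fit that called 1 gene in all, 0.00694% of those tested.

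Scn8a encodes Nav1.6, the alpha subunit that concentrates at the axon initial segment and nodes of Ranvier. It was at 281, 264, 302.4 and 302 CPM in the TR samples and at 370.2, 351 and 387 CPM in the NR samples, so that every TR sample was below every NR sample. The mean was 287 ± 18.5 CPM (SD, n = 4) in TR and 369 ± 18.4 CPM (SD, n = 3) in NR neurons. The log2 fold change was -0.36 (SE 0.0936, edgeR adjusted p = 0.00573). Unlike that of Scn1a it kept its call with the GC content offset (-0.34, edgeR adjusted p = 0.00547), where 24.0% of all genes were called. Adjusted for the genes detected per sample, it was -0.31 and missed the threshold (edgeR adjusted p = 0.391).

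Scn3a encodes Nav1.3, an alpha subunit most abundant in the embryonic brain. It was at 161, 192, 177 and 185 CPM in TR and at 177, 159 and 146 CPM in NR samples, and the groups overlapped. The log2 fold change of 0.16 (SE 0.0989) did not pass (edgeR adjusted p = 0.239). Scn9a, which encodes Nav1.7 and is best known from pain-sensing neurons but is also found in the hypothalamus, was the least abundant alpha subunit of the 4. It was at 31.6, 48.5, 37.8 and 46.7 CPM in TR and at 44.3, 34.1 and 36.0 CPM in NR samples. TR replicate 1 was the lowest of the 7 samples for Scn9a and the highest for Scn1a. The log2 fold change of Scn9a was 0.12 (SE 0.164, edgeR adjusted p = 0.620). The signs of Scn3a and Scn9a both turned negative with the GC content offset (-0.014 and -0.045), so that no direction can be given for either.

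**Figure D1:**
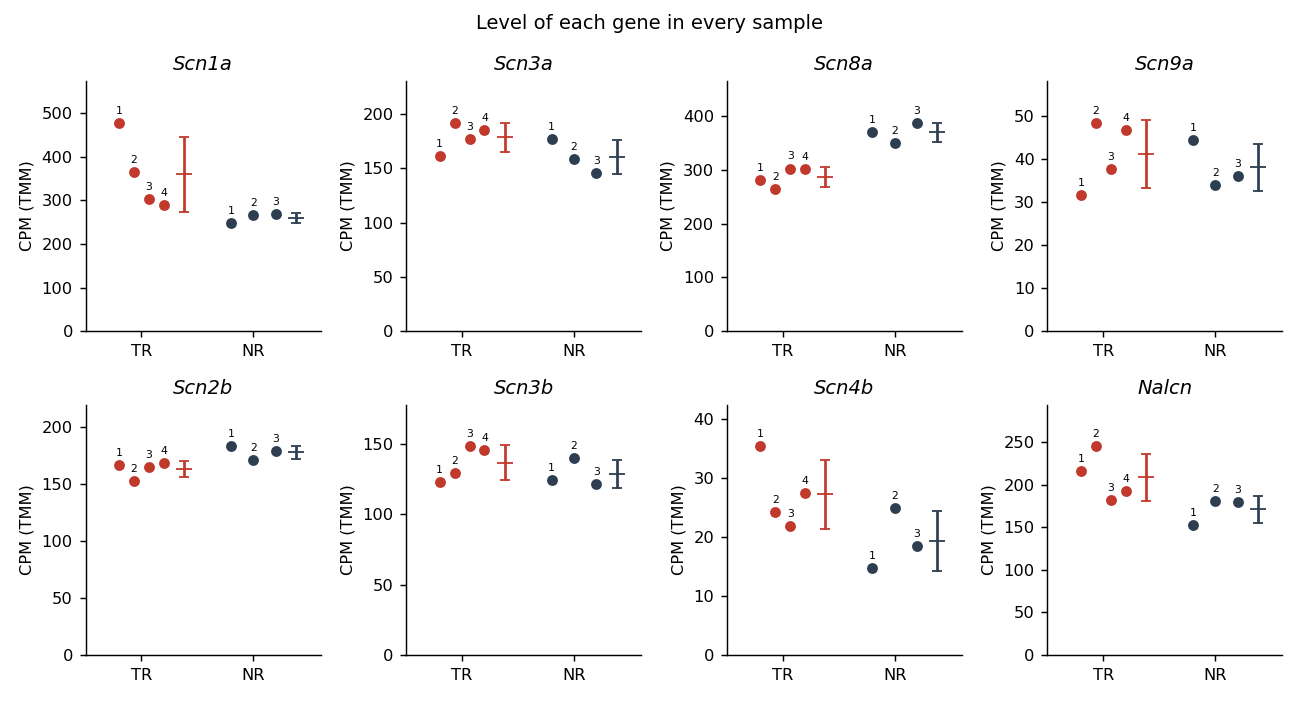
Level of each of the 8 genes (CPM after TMM scaling, linear axis from 0) in the TR samples (red) and NR samples (dark), with the replicate number above each point and the mean with its SD beside each group. Scn1a and Nalcn lie higher and Scn8a and Scn2b lower in all TR samples, by margins that range from 1.44 CPM for Nalcn to 48.3 CPM for Scn8a, and the other 4 genes overlap.

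None of the 3 beta subunits passed the test. Scn2b, which encodes a subunit linked to the pore by a disulfide bond, was at 167, 153, 165 and 169 CPM in TR and at 183, 172 and 179 CPM in NR samples. The groups did not overlap, but they were separated by a narrow margin, and the log2 fold change of -0.12 (SE 0.0916) did not pass (edgeR adjusted p = 0.332). Scn3b, a non-covalently bound subunit, was at 123, 129, 148 and 146 CPM in TR and at 124, 139.8 and 121 CPM in NR samples, which overlapped (log2 fold change 0.09, SE 0.102, edgeR adjusted p = 0.532). Scn4b encodes the subunit whose cytosolic tail is known to act as an open-channel blocker in resurgent sodium current. It was at 35.3, 24.2, 21.8 and 27.4 CPM in TR and at 14.7, 24.8 and 18.4 CPM in NR samples, from 45 to 132 counts. Its log2 fold change of 0.47 was the largest of the 8 in size, but so was its standard error of 0.211, and it did not pass (edgeR adjusted p = 0.0934). Without NR replicate 2, the highest of the NR samples, it was 0.70 and passed (edgeR adjusted p = 0.0366). In no other fit that was run did Scn4b pass.

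Nalcn was at 215, 245, 182 and 192 CPM in TR and at 152, 181 and 179.9 CPM in NR samples. The groups did not overlap, although TR replicate 3 and NR replicate 2 differed by 1.44 CPM. The mean was 209 ± 27.9 CPM (SD, n = 4) in TR and 171 ± 16.1 CPM (SD, n = 3) in NR neurons, a log2 fold change of 0.28 (SE 0.106, edgeR adjusted p = 0.05003). Whether it passed depended on the fit. It did so in 2 of the 7 fits that left out 1 sample. These were without TR replicate 3 (0.34, edgeR adjusted p = 0.0274) or TR replicate 4 (0.32, edgeR adjusted p = 0.0413). Of the 13 other alternatives it passed in 4, all in edgeR. These used DESeq2 size factors, upper quartile normalization, a stricter filter or the replicate number as a block. In DESeq2 itself it did not pass (0.29, DESeq2 adjusted p = 0.0575). With the GC content offset the log2 fold change was 0.16 (edgeR adjusted p = 0.242). Adjusted for the genes detected per sample, it was 0.36 (edgeR adjusted p = 0.371). The sign was positive in all 20 other fits.

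**Figure D2:**
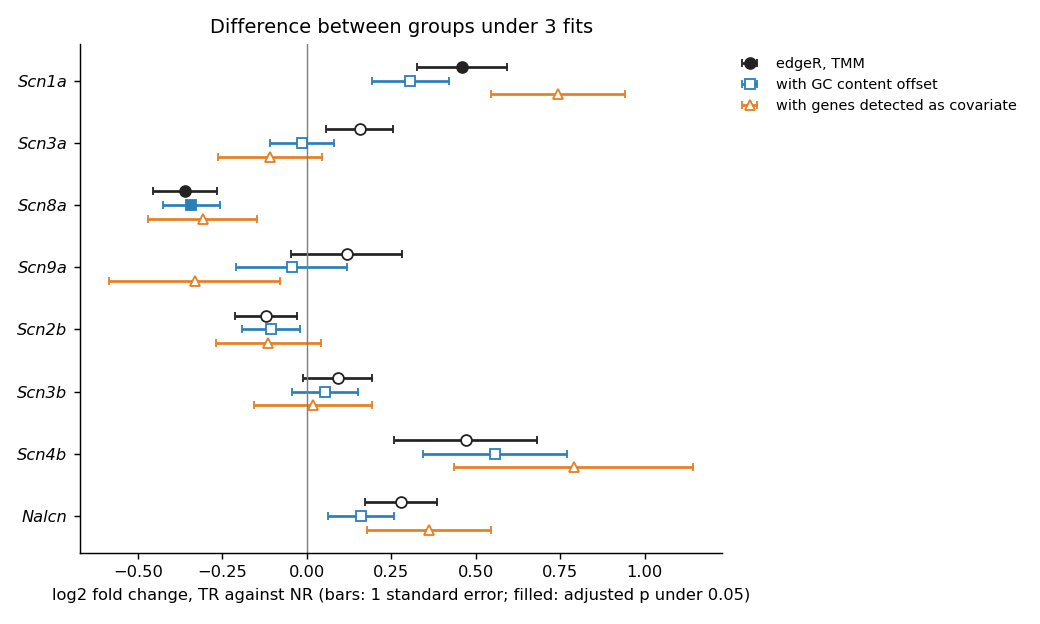
Log2 fold change of TR against NR for each gene (horizontal axis, with 1 standard error) in the edgeR fit with TMM, with a GC content offset, and adjusted for the genes detected per sample. Filled symbols mark an edgeR adjusted p under the threshold, which Scn1a reaches in the first fit alone, Scn8a in the first and second, and no gene in the third.

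Ratios of counts within a sample do not depend on library size or on the scaling between samples. The ratio of Scn1a to Scn8a counts was 1.70, 1.39, 1.01 and 0.963 in TR replicates 1 to 4, and 0.668, 0.761 and 0.691 in NR replicates 1 to 3. Scn1a was higher and Scn8a lower in every TR sample, so the 2 groups had to be apart in this ratio. The NR samples lay in a narrow band and the TR samples were spread above it. The pair was chosen after its values were seen, so the ratio is a description and was not tested. For Nalcn against Scn8a the ratio was 0.767, 0.929, 0.603 and 0.637 in TR and 0.412, 0.516 and 0.464 in NR samples. That separation was fixed in the same way, as Nalcn was higher in every TR sample. Against the other major alpha subunit of the brain, Scn2a (listed under its older symbol Scn2a1), Scn1a had a ratio of 1.22, 0.798, 0.640 and 0.672 in TR and of 0.535, 0.602 and 0.580 in NR samples. Scn8a against Scn2a1 gave 0.718, 0.575, 0.636 and 0.698 in TR and 0.801, 0.790 and 0.840 in NR samples. In each of these ratios the groups were apart, but only those against Scn2a1 could have overlapped.

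Levels of different genes were compared per kilobase of the longest annotated transcript. In TR neurons the order of the mean level (CPM per kb) was Scn1a (42.9), Scn2b (35.1), Scn3b (32.9), Nalcn (29.3), Scn8a (25.1), Scn3a (18.7), Scn4b (5.45) and Scn9a (4.18). From Scn1a down to Scn8a each gene overlapped in its sample range with the next, whereas Scn8a and Scn3a, and Scn3a and Scn4b, were apart in all 4 samples. In NR neurons the order was Scn2b (38.2), Scn8a (32.3), Scn1a (31.1), Scn3b (30.9), Nalcn (24.0), Scn3a (16.8), Scn9a (3.876) and Scn4b (3.876). There Scn8a, Scn1a and Scn3b were not apart from one another, and neither were Scn9a and Scn4b. Within single samples Scn1a held rank 1 of 8 in TR replicates 1 to 3 and rank 3 in TR replicate 4, but rank 3 or 4 in the NR samples. Scn8a held rank 4 or 5 in TR samples, and rank 2 in NR replicates 1 and 3 and rank 4 in NR replicate 2. The order depends on the length used. With all annotated exons joined, Scn2b led over all samples and Nalcn fell behind Scn3a, since the joined exons of Nalcn span 14.7 kb against 7.12 kb in its longest transcript.

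**Figure D3:**
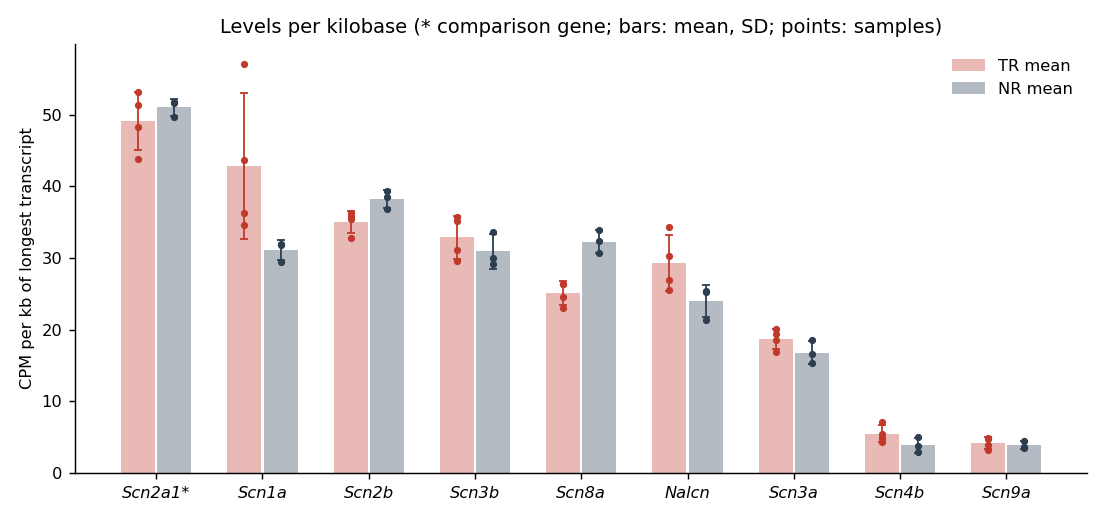
Mean level per kilobase of longest transcript (bars from 0, with SD) and each sample (points) in TR (red) and NR (dark) neurons, for the 8 genes and for Scn2a1, which is marked with an asterisk. Scn2a1 is the most abundant at 49.2 in TR and 51.0 in NR, and Scn4b and Scn9a are the least abundant.

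As shares of the summed level per kilobase of the 5 alpha subunits Scn1a, Scn2a1, Scn3a, Scn8a and Scn9a, Scn1a made up 39.2%, 30.5%, 26.2% and 25.9% in the TR samples and 21.6%, 24.1% and 23.4% in the NR samples. Scn8a made up 16.9%, 16.1%, 19.1% and 19.8% in TR and 23.7%, 23.2% and 24.8% in NR samples. Scn2a1 was the leading alpha subunit in every sample except TR replicate 1, where Scn1a exceeded it (39.2% against 30.1%). The summed level of the 5 was 140.1 ± 5.31 CPM per kb (SD, n = 4) in TR and 135 ± 2.50 CPM per kb (SD, n = 3) in NR neurons, and the groups overlapped in this sum. Of the summed level per kilobase of Scn2b, Scn3b and Scn4b, Scn2b made up 47.8% ± 1.13 (SD, n = 4) in TR and 52.4% ± 3.14 (SD, n = 3) in NR neurons, and Scn4b 7.45% ± 1.67 and 5.28% ± 1.27, with overlap in both.

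**Figure D4:**
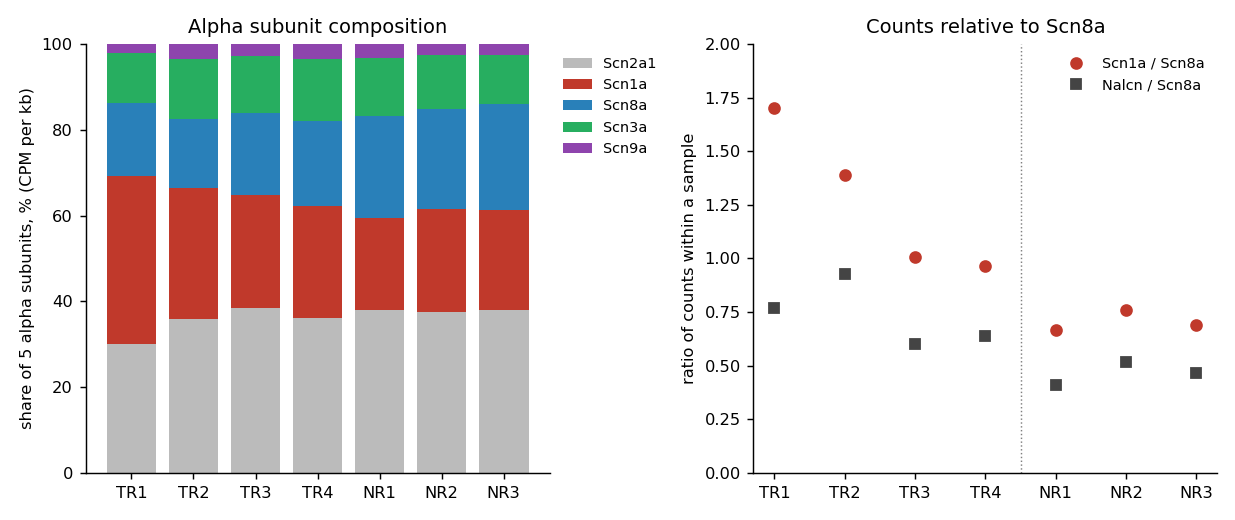
Left, share of each of 5 alpha subunits in their summed level per kilobase (percent) in each sample. Right, ratio of Scn1a and of Nalcn counts to Scn8a counts within each sample, with the TR samples left of the dotted line, where both ratios lie above all NR samples. The levels of these genes fix that order.

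Fold changes across all genes followed the GC content of the transcripts (Spearman's rho = -0.342 over 14295 genes, a description across genes, which are not independent replicates). GC-poor transcripts were therefore on average higher in TR samples. The longest transcript of Scn1a is 43.3% G and C, that of Scn3a 42.1%, of Scn9a 42.4% and of Nalcn 44.5%, below the median of 49.8% over the genes tested. That of Scn3b (47.8%) lies closer below it, and those of Scn8a (50.8%), Scn2b (50.5%) and Scn4b (54.5%) lie above it. Scn1a and Scn2a1 have nearly the same GC content (43.4% for Scn2a1). Their log2 fold changes were 0.46 and -0.05, the latter not past the threshold (edgeR adjusted p = 0.710), and 0.31 and -0.19 with the GC content offset. The trend is an average over genes, and its part in the change of a single gene was not tested. Scn8a and Scn2b also have nearly the same GC content, with -0.36 and -0.12. Scn4b lies opposite to the trend, and its log2 fold change was 0.56 with the GC content offset (edgeR adjusted p = 0.0584). Over the 8 genes the median log2 fold change was 0.14, and 0.020 with the offset. Over all genes tested it was 0.0070, and -0.012 with the offset.

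**Figure D5:**
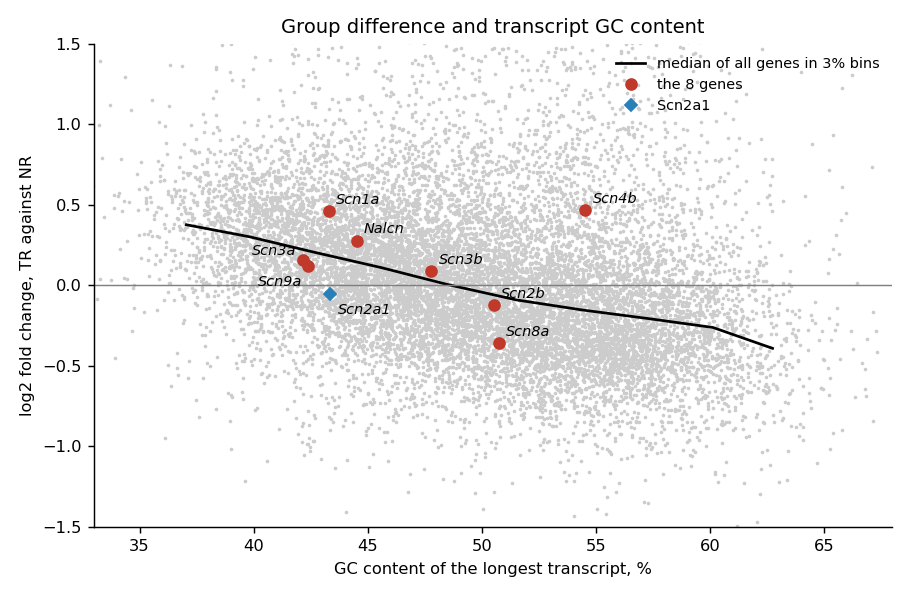
Log2 fold change of TR against NR (vertical axis, genes beyond its ends not drawn) against GC content of the longest transcript (percent) for all genes tested (grey), with the 8 genes in red, Scn2a1 in blue, and the median of all genes in bins as a black line. The line falls from left to right, Scn1a, Nalcn, Scn3b and Scn4b lie above it, and Scn3a, Scn9a, Scn2b and Scn8a below it.

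By position, Scn3a (chr2:65457118-65567627), Scn2a1 (chr2:65620771-65767447), Scn1a (chr2:66270778-66440840), Scn9a (chr2:66480080-66634962) and Scn7a (chr2:66673425-66784914) form a cluster on mm10, with Scn2a1 alone on the plus strand. Their log2 fold changes in this order were 0.16, -0.05, 0.46, 0.12 and 0.30. Scn1a was the only one of the 5 called, against 30.0% of all genes, and it lost its call with the GC content offset. Scn2b (chr9:45117782-45130070) and Scn4b (chr9:45138395-45154152) are neighbours on the plus strand of chromosome 9, with log2 fold changes of -0.12 and 0.47 of which neither was called. Nalcn lies at chr14:123276634-123627144 and Scn8a at chr15:100869858-101045938. The clustered alpha subunits are similar in sequence. Of the 50-base words of the longest transcript, 5.48% for Scn1a, 8.53% for Scn3a and 5.36% for Scn9a also occur in transcripts of other genes of the family. That share was 0.0527% for Scn8a and 0 for Nalcn, Scn3b and Scn4b, and 0.803% for Scn2b, with genes outside the family. Reads on such words may have been left uncounted or assigned to the wrong gene. For Scn9a, 1.41% of the exon bases are shared with the antisense gene Gm13629, and the other 7 genes share none with an annotated gene.

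Other voltage-gated sodium channel genes, of which 5 are described here, were tested in the same fit. Called higher were 3 of the 5, against 15.1% of all genes, and called lower none, against 14.9%. The 3 were Scn4a, the skeletal muscle channel, and Scn10a and Scn11a, known from sensory neurons of the periphery. Their log2 fold changes were 2.16, 1.66 and 1.85. These rest on 4 to 37 counts per sample for Scn4a, 5 to 24 for Scn10a and 4 to 21 for Scn11a. The groups overlapped for Scn10a but not for Scn4a or Scn11a, which were higher in every TR sample, as were 17.2% of all genes. Scn10a and Scn11a, but not Scn4a, were among the 1440 genes tested with the lowest levels (a mean of at most 4.88 CPM). Of those 1440 genes, 248 were called higher and 7 lower in TR neurons. Scn7a, a relative that does not open with voltage in the usual way, was not called (log2 fold change 0.30), and neither was Scn2a1.

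Nalcn works in a complex with Unc79, Unc80 and an accessory protein encoded by Fam155a. None of these 3 was called, against 30.0% of all genes. Their log2 fold changes were -0.24 for Unc79, 0.21 for Unc80 and -0.20 for Fam155a, which is also their median. Unc80 was higher in every TR sample, as were 17.2% of all genes. Fam155a was lower in every TR sample, as were 18.2% of all genes. The ratio of Nalcn to Unc80 counts was 0.358 ± 0.0376 (SD, n = 4) in TR and 0.341 ± 0.0484 (SD, n = 3) in NR neurons, with overlap.

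Among 8 genes that anchor sodium channels at the axon initial segment and nodes, 1 was called higher and 2 lower. The shares over all genes were 15.1% and 14.9%. Ank3, which encodes the master scaffold ankyrin-G, had a log2 fold change of 0.03 (edgeR adjusted p = 0.842). Nfasc, which encodes the adhesion molecule neurofascin, fell from 183 ± 37.7 CPM (SD, n = 3) in NR to 115 ± 15.0 CPM (SD, n = 4) in TR neurons (log2 fold change -0.67, edgeR adjusted p = 0.000646), and Trim46, which organizes microtubules of the initial segment, also fell (-0.54). Cntn1, which encodes the adhesion molecule contactin, rose (0.32, edgeR adjusted p = 0.0240). The median over the 8 was -0.0021. With the GC content offset Nfasc alone of these 3 was called.

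Of 8 cytosolic partners of the channels, 3 were called higher and 1 lower, against 15.1% and 14.9% of all genes. Their median log2 fold change was 0.20. Fgf12 and Fgf13, fibroblast growth factor homologues that bind the channel tail and slow its inactivation, rose by 0.29 and 0.36 on the log2 scale, while Fgf14 (0.19) and Fgf11 (-0.31) did not pass. Calm2, which encodes calmodulin, rose by 0.79 on the same scale. Nedd4l, a ubiquitin ligase that removes sodium channels from the membrane, fell by 0.36 and its groups did not overlap. Fgf12 lost its call with the GC content offset, and Fgf13, Calm2 and Nedd4l kept theirs.

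The 8 regulators of sodium channel transcripts had a median log2 fold change of -0.25. None was called higher and 2 lower, against 15.1% and 14.9% of all genes. These were Rbfox2 (-0.40, edgeR adjusted p = 0.00820) and Rbfox3 (-0.38, edgeR adjusted p = 0.00726), splicing factors whose family is known to act on exons of Scn8a. Rbfox3 is also a marker of neurons and lost its call with the GC content offset. Pum2, an RNA-binding protein that represses Scn8a mRNA, had a log2 fold change of 0.22 (edgeR adjusted p = 0.0839). Rest, which represses sodium channel genes outside neurons, had 6 to 25 counts per sample. Its log2 fold change was -0.51 (SE 0.460, edgeR adjusted p = 0.430). Over the 5 lists together 12 of 32 genes were called, against 30.0% of all genes, and 8 of these were called in the same direction with the GC content offset. With that offset 10 of the 32 were called, against 24.0% of all genes, as Calm3 (0.39) and Celf4 (0.26) also passed.

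The genes whose pattern over the 7 samples was most like that of Scn1a, by the root mean square difference of log2 CPM centred on each gene's mean, were Zdhhc20 (0.0712), Zfhx3 (0.0718) and Arrdc3 (0.0735), against a median of 0.419 over all genes tested. The nearest of the other 7 channel genes was Nalcn (0.194), and the farthest was Scn8a (0.474). This measure includes the difference between the groups. Genes higher in TR neurons are thus drawn towards Scn1a, and Scn8a, called lower, away from it. The order is a description and no separate evidence that these genes vary together. For Nalcn the nearest genes were Cttnbp2 (0.0606), Zfp810 (0.0613) and Kpna3 (0.0615), against a median of 0.343, and the nearest channel gene was Scn1a. Zdhhc20 was at 267 to 407 CPM in TR and at 234 to 264 CPM in NR samples, and Cttnbp2 at 127.5 to 172 and at 114 to 127.7 CPM.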

How the data were processed

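ERα+ neurons of the MPA were recorded in slices, and RNA of 2 pooled neurons per sample was amplified with the SMART-seq V4 ultra-low input kit and sequenced after Nextera XT library preparation. The authors aligned reads to mm10 with STAR (version 2.6.0 in the submitters' processing notes), removed duplicates with RmDup, and deposited raw counts per gene symbol from htseq-count (HTSeq 0.9.1). Removing duplicates without molecular identifiers can lower the counts of abundant genes. The annotation, strandedness and handling of overlapping genes are not given in the sources used here, so reads of a gene and its antisense partner cannot be told apart.

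From the 24062 symbols, 14407 genes that reached 10 counts in 3 or more samples were fitted with edgeR 4.0.16 in R 4.3.3 (TMM, robust quasi-likelihood test, two-sided) with Benjamini-Hochberg adjustment over all of them and a threshold of 0.05. The SE of a gene is its log2 fold change divided by the square root of F, and CPM used TMM-scaled totals. DESeq2 1.42.0, limma 3.58.1 and GC content or transcript length offsets (mgcv 1.9.3, centred to a median of 0 per sample) were alternatives. Across all genes 2176 were called higher and 2151 lower, so 50.3% of calls were higher, against 62.1% with upper quartile normalization and 40.8% with library size only. Lengths, GC content and coordinates came from GENCODE M21 on the same build, in which 98.4% of symbols were found by name or RefSeq synonym. The fit was tested on simulated data. The 8 genes and the lists were chosen with earlier results of these data known. Named genes were all 8, up to 3 called genes per direction from each list, and the 3 nearest patterns to Nalcn and to the gene of highest level per kilobase (log2 CPM, prior count 2). Others were named after their values were seen. Some genes of the lists are not reported here and were left out of the list counts and sums. The sample numbers come from the labels, which do not tie a number to an animal or a day. Each counted as 1 sample. Pairs of samples of one group differed by more than counting noise (chi-square per degree of freedom from 2.00 to 5.13), which does not show that they came from separate mice.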

Additional observations from a re-analysis of the deposited data

How the results depend on the processing

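The 2 calls among the 8 genes were compared over 20 alternatives, set with earlier results known. Scn1a was higher in all 20 and Scn8a lower in all 20. Each was called in 18 or more of them. Adjusted for the genes detected per sample, 1 gene of all passed (2062 at an unadjusted p under 0.05) and 0 of the 8, with Scn1a at 0.74, Scn8a at -0.31, Scn3a at -0.11 and Scn9a at -0.33. This number separates the groups, so the fit parts it from the condition only in part. With the GC content offset 1 of the 8 passed, and the values were 0.31 for Scn1a, -0.014 for Scn3a and -0.045 for Scn9a. Under the replicate block together with the GC content offset, 2754 genes passed in place of 4327, with Scn3a at -0.061, Scn9a at -0.15 and Scn1a at 0.36, which passed. With all genes with at least 1 count Scn3b was at -0.0016 in place of 0.091. Nalcn passed with DESeq2 size factors in edgeR (0.29), upper quartile normalization (0.35), at least 10 counts in every sample (0.30) and the replicate block (0.32). The cause was not tested. Of the scalings and filters, the filter at 1 count moved the median over the genes shared with the original fit most, by 0.092 downward.

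The fit with replicates 1 to 3 as a block (the replicate block, without TR replicate 4) called 4120 genes, 3 of the 8 among them, and apart from that of Nalcn no call among the 8 changed. Same-numbered samples did not deviate together (mean correlation of deviations -0.053, against 0.017 for other pairs). Centring within each group ties these means together, so they cannot show whether such samples share an animal or a day.

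Leaving out each sample in turn gave 2620 genes (without NR replicate 3) to 4583 genes and 2 to 3 of the 8. The log2 fold change ranged from 0.29 to 0.56 for Scn1a, from 0.092 to 0.23 for Scn3a, from -0.40 to -0.32 for Scn8a, from 0.042 to 0.23 for Scn9a, from -0.15 to -0.088 for Scn2b, from 0.048 to 0.16 for Scn3b, from 0.32 to 0.70 for Scn4b and from 0.20 to 0.34 for Nalcn. In the order of levels per kilobase over all samples, 4 of the 8 genes kept their place with joined exons and 6 with the median over samples. With all samples downsampled to the smallest total, SEs rose from 0.164 to 0.194 for Scn9a and from 0.211 to 0.225 for Scn4b, the genes with the fewest counts.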
